A study of Mus musculus with 4 samples.

Results

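The tyrosinase family (Tyr, Tyrp1 and Dct) and the melanosome matrix genes (Pmel, Mlana and Gpnmb) were measured in cultured melanocytes of mice that lack AhR, the aryl hydrocarbon receptor, and of wild-type mice. AhR is a transcription factor that is switched on by ligands. These 6 genes were looked up by name in the platform annotation, among probe sets with a single gene symbol, which cover 12393 genes. Of the 6, 5 had a probe set, 9 probe sets in all, and the 5 were among the top 60% of genes by mean signal, which are the genes tested. Mlana had no probe set that named it alone and was not analysed here. The arrays held RNA of AhR knockout 1 and 2, melanocytes of 2 female mice of the strain AhRtm1Bra, which lacks exon 2 of Ahr, and of wild type 1 and 2, from 2 female C57BL/6 mice. The knockout is of the germline, so the surrounding skin lacked the receptor as well before the cells were taken. All 4 cultures came from tail epidermis and grew in a melanocyte medium free of serum, for 6 to 8 weeks, with melanin visible at the end. The labels name no added AhR ligand, and age was not given in the sources used here.

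Melanin is made inside melanosomes, organelles related to lysosomes. Tyrosinase, encoded by Tyr, oxidises tyrosine and sets the rate of the pathway. Its relatives act further down: Dct, dopachrome tautomerase, rearranges dopachrome, and Tyrp1 oxidises the product in the mouse and steadies tyrosinase itself. Pmel is cleaved into amyloid fibrils that form the striations on which melanin is laid down, and Mlana binds Pmel and takes part in its maturation. Gpnmb is a glycoprotein related to Pmel that sits in late melanosomes and is also made by macrophages and osteoclasts. Mitf, the master transcription factor of the lineage, is known to drive these genes through E-box elements, among them the M box of the tyrosinase family promoters.

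The promoters of the tyrosinase family are shown because they share a sequence that the Gpnmb window lacks. RefSeq promoter windows of GRCm38.p6, from 250 bases before to 50 after the annotated start, were at hand for 4 of the 6 genes: Tyr, Tyrp1, Dct and Gpnmb. The longest run of letters common to the Tyr, Tyrp1 and Dct windows was 10 bases, printed in capitals below, each with 30 bases on either side in lower case, 5′ to 3′ on the gene's own strand. The Tyr stretch is chr7:87493496-87493565 on the minus strand, that of Tyrp1 is chr4:80834135-80834204 on the plus strand, and that of Dct is chr14:118052359-118052428 on the minus strand.
Tyr: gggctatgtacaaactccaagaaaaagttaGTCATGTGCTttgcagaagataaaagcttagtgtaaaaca
Tyrp1: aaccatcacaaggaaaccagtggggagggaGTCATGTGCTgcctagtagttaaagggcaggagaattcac
Dct: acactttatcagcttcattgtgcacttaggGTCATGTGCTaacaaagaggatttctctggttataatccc

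The common run began 23 bases before the annotated start in Tyr, 48 bases before it in Tyrp1 and 152 bases before it in Dct. It was found on either strand of 61 of 32851 promoter windows, a share of 0.186%. This run was picked after the sequences had been read. It contains 2 of the 4 motifs searched on both strands, CATGTG and the longer TCATGTG that overlaps it, which were in 14.2% and 3.77% of all windows. Dct held a second TCATGTG, on the opposite strand, in letters that begin 232 bases before the start. CACGTG, in 7.15% of all windows, and GCGTG, the core letters of the element that AhR binds, in 32.4% of them, were in 0 of the 4 windows. The Gpnmb window held 0 of the 4 motifs. A match describes the letters only, and a motif missing here may lie outside the window.

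The targeted gene and the arrays themselves bear on every value below. The brighter Ahr probe set read 241 and 843 in AhR knockout 1 and 2, and 825 and 874 in wild type 1 and 2. The position of these probes in the gene is not known here. Of the probes of Ahr itself, only those inside the deleted exon would check the labels. Cyp1b1, an enzyme gene that AhR is known to switch on, fell to 14.0 and 23.1 in knockout cells, against 1216 and 1410 in wild-type cells (limma, adjusted p = 0.000455, by Benjamini-Hochberg over all tested genes). Ahrr, the AhR repressor, also fell, by 2.47 on the log2 scale (adjusted p = 0.0220). Tiparp, another target, differed by -1.27 (adjusted p = 0.139), and Cyp1a1, the classical target, was under the signal filter. AhR knockout 2 stood apart in its controls: its ratio of 3′ to 5′ Gapdh signal, a sign of shortened RNA or uneven amplification, was 11.9. The ratio of AhR knockout 1 was 1.98, and those of wild type 1 and 2 were 2.13 and 2.85. The actin ratio was 7.0 and 28.0 in AhR knockout 1 and 2, and 7.89 and 8.71 in wild type 1 and 2, well above 1 on all 4 arrays and highest on the same one. Its bright end was also stretched, with a 99th percentile of 14298 and a maximum of 38758.5, against 11290 and 25678.6 in AhR knockout 1, 10072 and 23507.1 in wild type 1, and 10234 and 24681.6 in wild type 2. The deposited values are MAS5 signals, linear brightness scaled to the same trimmed mean on each array, which was 499.9 on all 4. The arrays are from separate animals, n = 2 in both groups, and that number limits the precision.

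Tyr was the member with the largest difference. Its main probe set, the one of highest mean signal, read 10954 and 7374 in AhR knockout 1 and 2, and 4796 and 3189 in wild type 1 and 2. The groups did not overlap, and the dimmer knockout array lay 53.8% above the brighter wild-type array. The mean signal was 9164 ± 2531 in knockout cells and 3992 ± 1136 in wild-type cells (SD, n = 2 each). On the log2(signal + 16) scale the difference, AhR knockout minus wild type, was 1.20 ± 0.34 (SE from limma), a 2.29-fold difference with a 95% interval of 0.45 to 1.95. Tyr did not pass the test over all tested genes: limma gave an unadjusted p of 0.00535 and an adjusted p of 0.103. Of 7435 tested genes, 157 had a larger positive difference and 385 had a smaller p. In a bulk culture, more pigment cells and more of the transcript in each cell cannot be told apart, which holds for every gene below.

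The further Tyr probe sets lay on the same side. The second in brightness read 1763 and 3515 in AhR knockout 1 and 2, and 1052 and 856 in wild type 1 and 2, or 1.38 ± 0.42 on the log2 scale (adjusted p = 0.162 in the limma fit of every probe set). The dimmest read 391 and 429 in AhR knockout 1 and 2, and 216 and 185 in wild type 1 and 2, or 0.98 ± 0.35 on the log2 scale (adjusted p = 0.195). Knockout and wild-type arrays were separated in all 3 probe sets of Tyr. They did not share an order within the knockout group: AhR knockout 2 had 0.673 times the signal of AhR knockout 1 in the main probe set, 1.99 times in the second and 1.10 times in the dimmest. The probe sets of a gene read different stretches of its transcripts, and the part of the high 3′ to 5′ ratio of AhR knockout 2 in this disagreement was not tested.

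Dct and Pmel had smaller positive differences that did not pass either. Dct read 20442 and 32201 in AhR knockout 1 and 2, and 18026 and 16814 in wild type 1 and 2. The groups were separated, by 13.4% between the nearest arrays, and the wild-type pair was tight, and AhR knockout 2 stood far above the other 3. The log2 difference was 0.56 ± 0.26, or 1.47-fold, with a 95% interval of -0.017 to 1.14 and a limma adjusted p of 0.254. AhR knockout 1 lay 0.23 above the wild-type mean on that scale, and AhR knockout 2 lay 0.89 above it.

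Pmel read 16543 and 23074 in AhR knockout 1 and 2, and 16489 and 8478 in wild type 1 and 2. Here the wild-type arrays were 1.95-fold apart, and AhR knockout 1 lay only 0.328% above wild type 1, so the groups barely cleared each other. The log2 difference was 0.72 ± 0.33, or 1.65-fold, with a 95% interval of -0.019 to 1.47 and a limma adjusted p of 0.254. Without wild type 2 it was 0.24, and without wild type 1 it was 1.20.

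Tyrp1 did not separate the groups. Its main probe set read 20294 and 30093 in AhR knockout 1 and 2, and 19809 and 20547 in wild type 1 and 2. AhR knockout 1 lay between the wild-type arrays, and AhR knockout 2 alone was high. The log2 difference was 0.29 ± 0.24, with a 95% interval of -0.25 to 0.84 and a limma adjusted p of 0.508. AhR knockout 1 lay 0.0085 above the wild-type mean on that scale, and AhR knockout 2 lay 0.58 above it.

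The probe sets of Tyrp1 disagreed in AhR knockout 2. In the dimmest of the 3 the signal was 11743 and 6366 in AhR knockout 1 and 2, and 12269 and 9696 in wild type 1 and 2, so that AhR knockout 2 was the lowest array where it had been the highest. Its log2 difference was -0.33 ± 0.33, with adjusted p = 0.605 in the limma fit of every probe set. The remaining one, whose suffix marks probes that may also match other transcripts, read 15772 and 20881 in AhR knockout 1 and 2, and 15343 and 16741 in wild type 1 and 2, with a log2 difference of 0.18 ± 0.24. The ratio of AhR knockout 2 to AhR knockout 1 was thus 1.48 in the main probe set, 0.542 in the dimmest and 1.32 in the remaining one. AhR knockout 1 differed from the wild-type mean by 0.0085, 0.11 and -0.023 on the log2 scale in these 3.

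Gpnmb varied least. It read 15674 and 15977 in AhR knockout 1 and 2, and 14908 and 11316 in wild type 1 and 2. The groups were separated by 5.14% between the nearest arrays, with wild type 2 the lowest. The log2 difference was 0.28 ± 0.25, or 1.22-fold, with a 95% interval of -0.27 to 0.84 and a limma adjusted p of 0.526. Unlike the enzymes, it was alike in the knockout arrays, at 0.27 and 0.30 above the wild-type mean on the log2 scale.

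**Figure D1:**
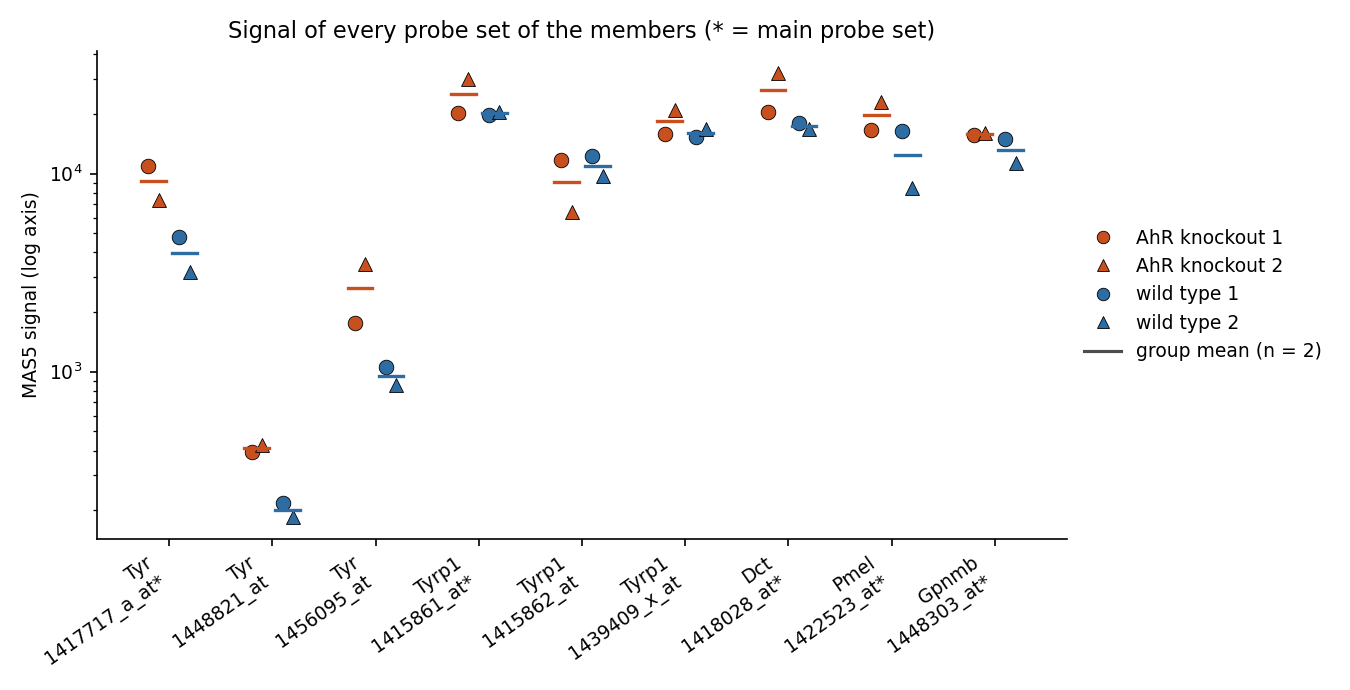
MAS5 signal on a log axis for each of the 9 probe sets of the 5 measured genes, with AhR knockout arrays in orange to the left and wild-type arrays in blue to the right. Circles are animal 1, triangles animal 2, horizontal lines the group means (n = 2), and an asterisk marks the main probe set. The 3 Tyr probe sets separate the groups, while the 3 Tyrp1 probe sets do not.

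Of the 5 measured members, 0 passed an adjusted p of 0.05 by limma, 1 had an unadjusted p under 0.05, and 4 had both knockout arrays above both wild-type arrays. Over all 7435 tested genes, 15 rose (0.202%) and 56 fell (0.753%) past the adjusted threshold. At an unadjusted p under 0.05, 7.68% of tested genes were higher and 12.9% lower. Both knockout arrays lay above both wild-type arrays in 28.7% of tested genes, and below them in 26.7%. All 5 differences were positive, while 3740 of all tested genes were higher and 3695 lower. The members' median was 0.56. Over all tested genes the median was 0.0055, with a 5th to 95th percentile range of -1.37 to 0.97. Tyr lay above that range and the other 4 within it.

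The members' brightness matters to that reading. Of the 5, 4 belonged to the 149 tested genes with a mean signal of at least 10000, and Tyr to the 2162 between 1000 and 10000. In the brightest class 126 genes were higher and 23 lower in knockout cells, 61.1% had separated groups with knockout above, and the median log2 difference was 0.32. Set against the wild-type mean, AhR knockout 1 had a median of 0.18 and AhR knockout 2 one of 0.52. The differences of Tyrp1 and Gpnmb lay just under that median, and those of Dct and Pmel above it. In the class that holds Tyr the median was 0.039. These classes were set after the values had been seen.

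**Figure D2:**
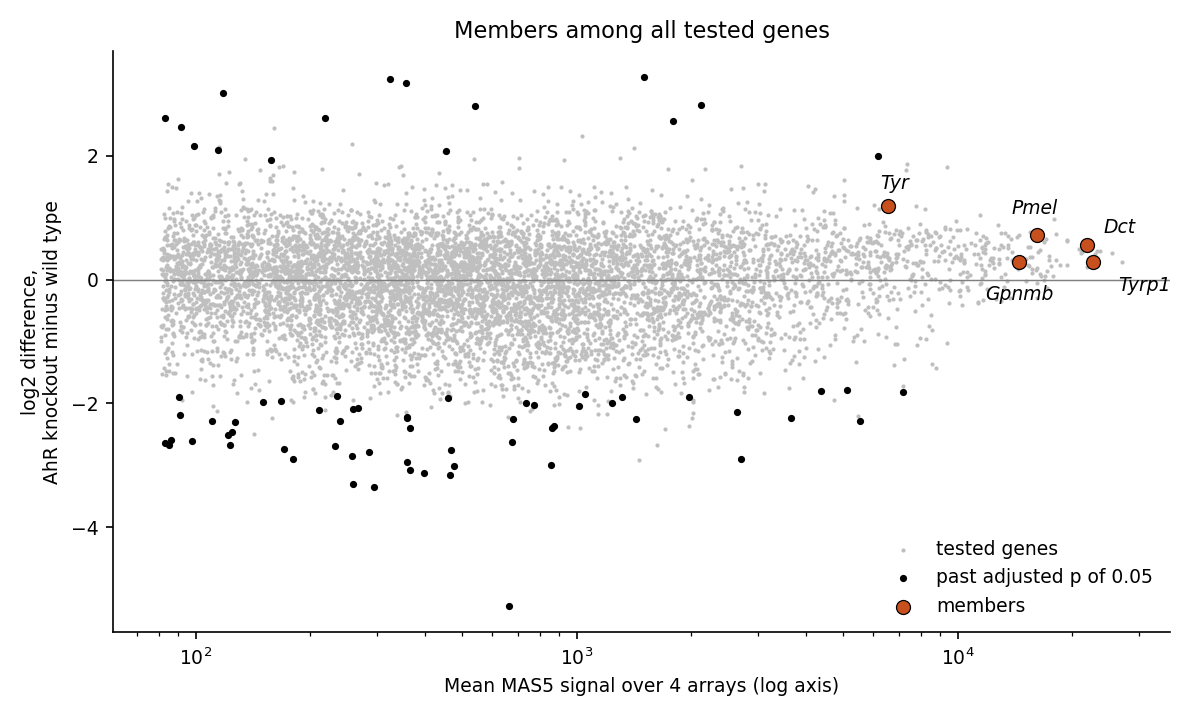
Log2 difference (AhR knockout minus wild type) against the mean MAS5 signal over 4 arrays on a log axis, for the 7435 tested genes in grey, those past an adjusted p of 0.05 in black and the 5 members in orange. Most grey points to the right of 10000 sit above 0, where Tyrp1, Dct, Pmel and Gpnmb lie, while Tyr stands at the upper edge of its own brightness range.

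Quantile normalization, which gives every array the same distribution and so takes out the stretched bright end, kept the Tyr difference and shrank the others. Tyr was at 1.08, with 11260 and 6482 in AhR knockout 1 and 2 and 5084 and 3214 in wild type 1 and 2 after normalization. Its other probe sets were at 1.41 and 1.10, and all 3 still separated the groups. Dct came to 0.19, with 22870 and 22820 in AhR knockout 1 and 2 and 21670 and 18580 in wild type 1 and 2. Pmel came to 0.37, and its groups overlapped. Tyrp1 changed sign to -0.085 in the main probe set, with both knockout arrays below both wild-type arrays. Its dimmest probe set was at -0.575, with overlapping groups, and the remaining one at -0.14, with knockout again below. Gpnmb changed sign to -0.018. In this setting the median of the brightest class was -0.0064.

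Single arrays decided whether a member passed. With AhR knockout 1 left out, the lone AhR knockout 2 set against the wild-type pair, limma gave adjusted p = 0.0314 for Tyr, 1.339e-04 for Dct, 3.428e-04 for Pmel and 0.0171 for Tyrp1, in a fit that called 1360 genes instead of 71. With AhR knockout 2 left out, Tyr alone passed, at a log2 difference of 1.48 and adjusted p = 5.664e-05, in a fit that called 1031 genes. In these fits the single array is assumed to vary as the wild-type pair does. Without wild type 2 the adjusted p of Tyr was 0.959 at a difference of 0.90, and without wild type 1 it was 0.120 at 1.49.

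**Figure D3:**
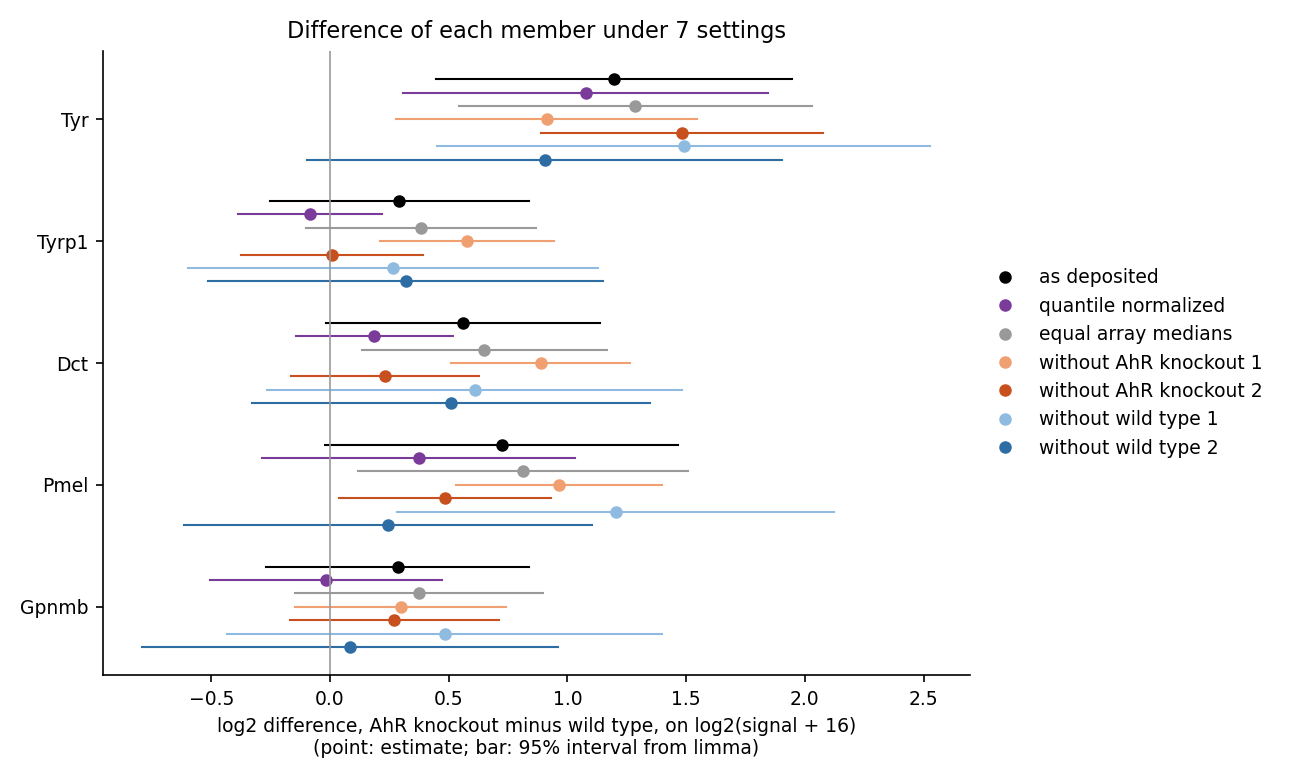
Log2 difference (AhR knockout minus wild type) of each member as deposited, after quantile normalization, after setting the array medians equal, and with each array left out. Points are estimates and bars 95% intervals from limma. Tyr stays between 0.90 and 1.49 in these 7 settings, while Tyrp1 and Gpnmb lie just below 0 after quantile normalization.

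How the members moved against each other can be read within an array, where overall scale cancels. The stretched bright end and the high 3′ to 5′ ratio of AhR knockout 2 are not an overall scale and need not cancel. The log2 ratio of Tyr to Tyrp1 was -0.89 and -2.03 in AhR knockout 1 and 2, and -2.05 and -2.69 in wild type 1 and 2. Knockout lay above wild type, but AhR knockout 2 all but met wild type 1, and the knockout arrays were 1.14 apart. Each ratio here uses the main probe set of both genes. AhR knockout 2 had 0.673 times the signal of AhR knockout 1 in that probe set of Tyr, but 1.99 times in the second. Ratios with the further probe sets were not computed, and they may separate the groups otherwise. The ratio of Tyr to Gpnmb was -0.52 and -1.12 in AhR knockout 1 and 2, and -1.64 and -1.83 in wild type 1 and 2, and the groups did not overlap. The ratio of Tyrp1 to Dct was -0.010 and -0.098 in AhR knockout 1 and 2, and 0.14 and 0.29 in wild type 1 and 2, again without overlap. In the other 7 of 10 pairs the groups overlapped. Over all pairs of tested genes, the groups were separated in one direction or the other in 54.4%, so 3 separated pairs of 10 are no result about the members. Only the change of such a ratio between arrays has meaning, since probe sets differ in brightness, and no test was made: with 2 arrays in both groups the exact permutation p is at least 33.3%.

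The patterns most like each member were found as the 2 tested genes with the smallest Euclidean distance over the 4 arrays, on mean-centred log2 values. For Tyr these were Myl9, a myosin light chain, at a distance of 0.10, and Car14, a carbonic anhydrase, at 0.13. Car14 read 336 and 221 in AhR knockout 1 and 2, and 156 and 93.3 in wild type 1 and 2. For Tyrp1 the nearest was Fth1, the ferritin heavy chain, at a distance of 0.035. Fth1 was the brightest probe set on both wild-type arrays and read 23692 and 36221 in AhR knockout 1 and 2, and 23507 and 24682 in wild type 1 and 2. Tm2d2 came next for Tyrp1, Serinc4 and Sgip1 for Dct, Gga1 and Nol3 for Pmel, and Ndufs3 and Atg4d for Gpnmb. With 4 arrays and 7435 tested genes, close matches may exist for many genes, which was not tested. How many genes lay at a like distance was not counted. Among the members the closest pair was Tyrp1 and Dct, at 0.29, and the farthest was Tyr and Tyrp1, at 1.29.

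Transporters and receptors of the melanosome membrane split. Of 12 genes on the list, 10 were measured and 9 tested. Of the 9, 6 were higher and 3 lower, 0 passed by limma, and the median was 0.43. Slc45a2, a transporter needed for full tyrosinase activity, read 6281 and 5393 in AhR knockout 1 and 2, and 3238 and 1265 in wild type 1 and 2, or 1.52 ± 0.44 on the log2 scale (adjusted p = 0.109). Tspan10, a tetraspanin, differed by 1.09 and Slc7a11, the cystine importer that feeds pheomelanin synthesis, by -0.62. Atp7a, the pump that loads copper onto tyrosinase, read 640 and 1642 in AhR knockout 1 and 2, and 2530 and 3557 in wild type 1 and 2, or -1.53 ± 0.47 on the log2 scale (adjusted p = 0.123). Oca2, a melanosomal anion channel, differed by 0.55 with overlapping groups, at 3742 and 1766 in knockout cells and 3314 and 926 in wild-type cells. Slc24a5, a melanosomal ion exchanger, had no probe set that named it alone.

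Genes that deliver the enzymes to melanosomes and move the organelle showed no common direction. Of 25 genes, 20 were measured and 18 tested, 9 of them higher and 9 lower, with a median of 0.040 and 0 past the limma test. Rab38, a small GTPase of the route that carries Tyr and Tyrp1, read 5239 and 6853 in AhR knockout 1 and 2, and 3422 and 1349 in wild type 1 and 2, or 1.47 ± 0.44 on the log2 scale (adjusted p = 0.118). Mlph, melanophilin, which links melanosomes to their motor, differed by 1.12. Ap3s1, a subunit of the AP-3 adaptor that sorts tyrosinase, differed by -1.22 and Hps3, of a sorting complex lost in Hermansky-Pudlak syndrome, by -0.97.

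Genes around Pmel cleavage and fibril formation held differences of either sign. Of 12 genes, 10 were measured and tested, 7 higher and 3 lower, with a median of 0.53, and 0 passed by limma. Apoe, the apolipoprotein that helps Pmel form fibrils on vesicles, read 14534 and 14034 in AhR knockout 1 and 2, and 6395 and 2537 in wild type 1 and 2, or 1.82 ± 0.40 on the log2 scale (adjusted p = 0.0648). Psen2, a catalytic subunit of the gamma-secretase that clears the remaining Pmel stub, differed by 1.44 ± 0.39 with adjusted p = 0.0989. The sheddases Adam10 and Adam17 differed by -1.39 and -1.36, and Adam10 read 2594 and 5145 in AhR knockout 1 and 2, and 7795 and 11761 in wild type 1 and 2. Bace2, the protease that cuts Pmel for fibril release, overlapped between groups, at 397 and 632 in knockout cells and 565 and 215 in wild-type cells.

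Chaperones and enzymes of tyrosinase folding in the endoplasmic reticulum were mixed. All 10 genes were tested, 4 higher and 6 lower, with a median of -0.31 and 0 past the limma test. Pdia3, a disulfide isomerase of glycoprotein folding, read 1983 and 567 in AhR knockout 1 and 2, and 3049 and 3506 in wild type 1 and 2, or -1.61 ± 0.53 on the log2 scale (adjusted p = 0.142). Hsp90b1 and Hspa5, chaperones of the same compartment, differed by -0.98 and -0.55, and Ppib, a prolyl isomerase, by 0.53.

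Among regulators of the family, Mitf did not follow Tyr. Mitf read 1668 and 2462 in AhR knockout 1 and 2, and 2771 and 2644 in wild type 1 and 2. Both knockout arrays were below both wild-type arrays, by -0.41 ± 0.35 on the log2 scale (adjusted p = 0.517). Sox10, which acts upstream of Mitf and on Dct, read 3303 and 5559 in AhR knockout 1 and 2, and 2134 and 998 in wild type 1 and 2, or 1.54 ± 0.44 on the log2 scale (adjusted p = 0.107). Cited1, a transcriptional co-activator found in melanocytes, read 2364 and 2169 in AhR knockout 1 and 2, and 803 and 317 in wild type 1 and 2, or 2.13 ± 0.46 on the log2 scale (adjusted p = 0.0607). Kit, the receptor for stem cell factor, differed by -1.39, and Pax3, a factor upstream of Mitf, by 0.74 with overlapping groups. Of 20 genes, 18 were measured and 12 tested, 8 higher and 4 lower, with a median of 0.14 and 0 past the limma test. Single arrays set the sign of several of these list medians. Without wild type 2 the medians were -0.20 for transporters and receptors, -0.089 for delivery and -0.13 for regulators. The delivery median was -0.096 without AhR knockout 2, and the folding median was 0.029 without AhR knockout 1.

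Wild type 2 was the lowest of the 4 arrays for 4 of the 5 members, Tyr in its 3 probe sets, Dct, Pmel and Gpnmb, but not for Tyrp1. Among the named genes of the related lists, it was the lowest for Slc45a2, Oca2, Tspan10, Rab38, Mlph, Apoe, Psen2, Bace2, Ppib, Sox10, Pax3 and Cited1. It was the highest for Atp7a, Slc7a11, Ap3s1, Hps3, Adam10, Adam17, Pdia3, Hsp90b1 and Hspa5, and neither for Mitf and Kit. The share of all tested genes with wild type 2 lowest was not counted, so these are no result about the members. The 9 measured melanocyte lineage markers summed to 18230 and 19010 in AhR knockout 1 and 2, and 15390 and 8375 in wild type 1 and 2. Of the 8 tested, 6 were higher and 2 lower, and 0 passed by limma.

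Markers of other cell types differed between the cultures too. The 12 endothelial markers summed to 9358 and 3928 in AhR knockout 1 and 2, and 17830 and 20790 in wild type 1 and 2. Of the 11 tested, 10 were lower, with a median of -1.67, and 1 of them, Sox17, was past the limma test (adjusted p = 0.0491). Among all tested genes, 3740 were higher and 3695 lower, and 0.753% fell past that test. Cd34 and Emcn differed by -2.19 and -2.21. The 9 measured fibroblast markers summed to 2628 and 1701 in knockout cells and 2713 and 5121 in wild-type cells, with 1 of the 4 tested higher and 3 lower. Col3a1 fell past the limma test, by 2.29 on the log2 scale (adjusted p = 0.0409), while Fbln2 and Thy1 differed by -1.16 and -0.68 and Dcn by 0.39. The 10 measured keratinocyte markers summed to 1755 and 471 in AhR knockout 1 and 2, and 593 and 521 in wild type 1 and 2, with Krt6a, Krt5 and Krt14 at 481, 305 and 539 in AhR knockout 1. Of the 5 tested, 4 were higher and 1 lower, and 0 passed by limma. The 9 measured Schwann and glial markers summed to 17040 and 19280 in knockout cells and 12820 and 11670 in wild-type cells. Most of that sum is S100b and Pmp22, which differed by 1.84 and 0.73. The other 4 of the 6 tested were lower, Ngfr by -1.03, the list's median was -0.088, and 0 passed by limma. The part of these cells in the differences of the pigment genes was not tested.

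Macrophages also make Gpnmb, and their part in its signal was not tested. The 17 macrophage and osteoclast markers summed to 7450 and 4670 in AhR knockout 1 and 2, and 2920 and 2958 in wild type 1 and 2. Of the 7 tested, 4 were higher and 3 lower, and 0 passed by limma. Lyz2 differed by 1.79 ± 0.36 (limma adjusted p = 0.0541), C1qb by 1.04, Cd14 by 1.15 and Csf1r by 0.56. In the other direction, Cd68 differed by -0.71, Ctsk by -0.72 and Fcgr3 by -0.49. Ptprc and Adgre1 were dim. Ptprc read 2.06 and 26.1 in AhR knockout 1 and 2, and 24.4 and 13.7 in wild type 1 and 2, while Adgre1 read 97.9 and 87.6 in knockout cells and 57.7 and 52.4 in wild-type cells. Neither of them passed the signal filter, and 0 of the 17 was listed at 0.

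**Figure D4:**
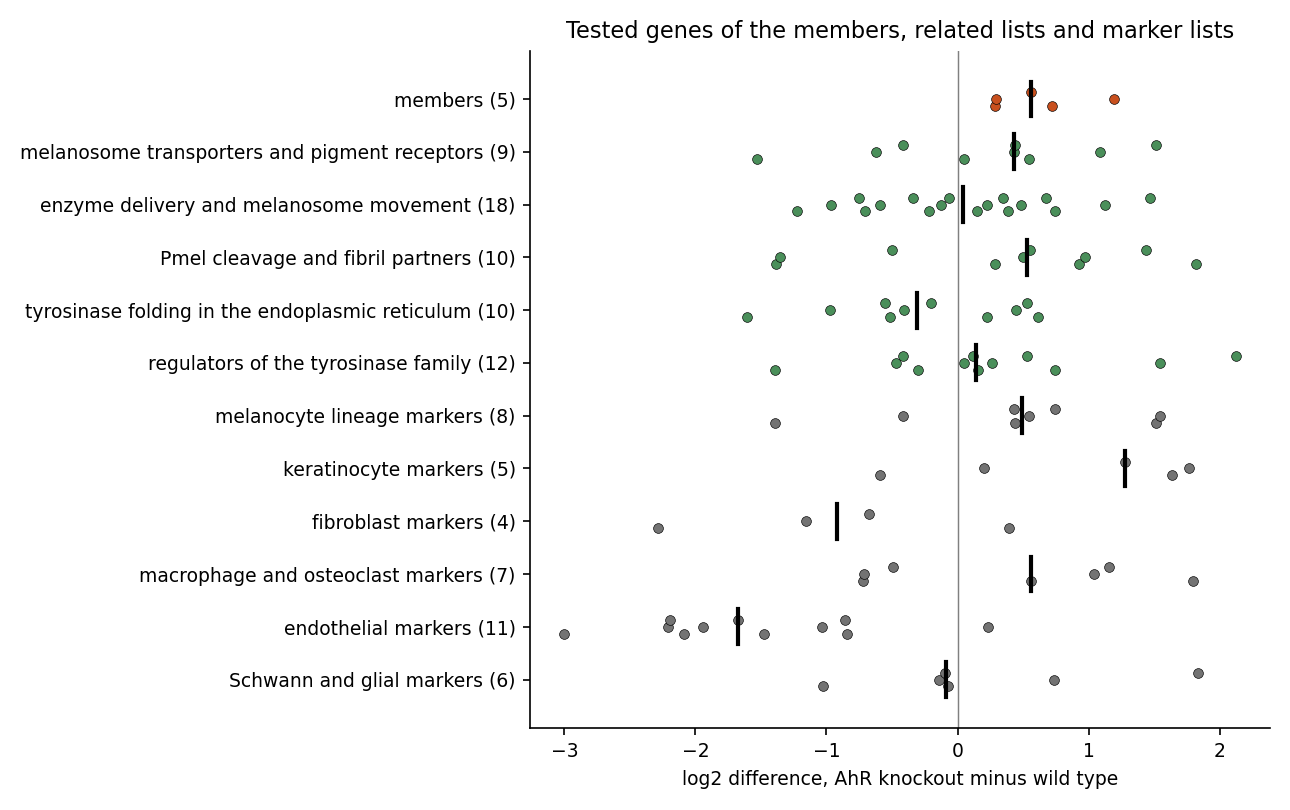
Log2 difference (AhR knockout minus wild type) of every tested gene of the members (orange), the 5 related lists (green) and the 6 marker lists (grey), with the number of tested genes in brackets and black bars at the medians. The 5 members sit between 0.28 and 1.20, the related lists reach to both sides of 0, and 10 of 11 endothelial markers lie below it.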

How the data were processed

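Amplified, biotin-labelled RNA was measured on Affymetrix arrays with 1 colour, per the labels' protocols. The authors deposited linear signal intensity made with MAS5, per the submitters' processing notes. The version, background handling and detection calls were not given in the sources used here. Scaling to a common trimmed mean divides out a change of most transcripts. All 4 columns were used.

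Of 22690 probe sets, 20380 had a single symbol, and 20351 of these were updated by gene ID with RefSeq's GRCm38.p6 table. A gene was represented by its probe set of highest mean signal. Values were log2(signal + 16), and the top 60% of genes by mean signal, 7435 with a lowest mean of 81.2, were tested. The test was limma 3.58.1 under R 4.3.3 (lmFit, then eBayes with its trend option), adjusted by Benjamini-Hochberg over these genes, at a threshold of 0.05. Further probe sets come from the fit with every probe set as a row. The code was tested on simulated data.

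The members and the 11 lists were chosen with earlier results of these data known. Named were all members, Ahr and its known targets, up to 4 genes of each related list and 3 of each marker list by smallest p, Mitf, Sox10, Oca2 and Slc45a2, and the 2 nearest patterns of each member. Bace2, Dcn, Ptprc, Adgre1, Csf1r, Cd68, Ctsk and Fcgr3 were added after their values were seen. The closing section gives the alternatives. Figures were drawn with matplotlib 3.10.9.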

Additional observations from a re-analysis of the deposited data

How the results depend on the processing

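Over 16 alternatives to the processing, the difference of Tyr ran from 0.90 to 1.49, that of Pmel from 0.24 to 1.20 and that of Dct from 0.19 to 0.89, positive in every one. Those of Tyrp1 and Gpnmb were positive in 15 of 16 and turned to -0.085 and -0.018 under quantile normalization. Equal array medians, with a median of all tested genes of 0.094 against 0.0055 as deposited, left all 5 positive. This scaling moved the members up nearly alike, Tyr from 1.20 to 1.29 and Tyrp1 from 0.29 to 0.38. Positive signs could not turn under it. Settings that changed only the filter, the eBayes options or the block, or fitted every probe set, cannot change a member's difference. Their sign was fixed in advance and adds nothing to these counts. Leaving out an array moved Tyrp1 between 0.0085 and 0.58, Dct between 0.23 and 0.89, Gpnmb between 0.086 and 0.48, and the members' median between 0.27 and 0.89. Of 5 members, 0 passed in the main setting, and between 0 and 4 passed with an array left out. The count of genes that passed was 71. It was 32 under quantile normalization, 43 with a pseudocount of 1, 20 with the top 40% of genes, 40 with the mean of probe sets, 30 with every probe set and 1 without the filter, and it lay between 20 and 1360 with an array left out (1360 without AhR knockout 1, 1031 without AhR knockout 2, 152 without wild type 1 and 20 without wild type 2). Of the calls, 34.3% were rises with equal array medians, against 21.1% as deposited. With the title number as a replicate block, 1406 genes and 1 member passed, Tyr at 1.20 with adjusted p = 0.00386. The titles do not say that a number marks a shared litter or day, and the deviations of same-numbered arrays correlated at r = 0.353 across genes, a single value from 2 groups of 2. A filter on mean log2 signal, added after the data were seen, left the members' differences as they were. No cause was tested.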
